A study of Mus musculus with 11 samples.

Results

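H3K27me3, the trimethylation of lysine 27 on histone H3, was compared between quiescent satellite cells (QSCs) of young and old mice by taking every peak that the authors called at each age. The young list held 11658 peaks and the old list 17635, together 29293 of the 212879 peaks in the 8 peak lists of the series. A young peak was counted as kept when at least 1 bp of it lay in an old peak, and an old peak without any such overlap was counted as old-only. No peak was left out. The study profiled histone marks by ChIP-seq in QSCs and in activated satellite cells (ASCs), with the question of how chromatin in these stem cells changes on activation and with age. Both groups were male C57BL/6 mice, 2 to 3 months old in the young group and 22 to 24 months old in the old group. QSCs of both ages were sorted as VCAM+ / CD31- / CD45- / Sca1- cells from uninjured hindlimb muscle, fixed with formaldehyde and frozen until enough cells had been collected for ChIP. The same H3K27me3 antibody from Millipore was used at both ages. The young ASCs used below as a second reference were sorted in the same way from young mice and then cultured for 3 days.

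Satellite cells are the resident stem cells of skeletal muscle. They lie quiescent between the muscle fibre and its sheath and divide after injury. H3K27me3 is written by Polycomb repressive complex 2 and marks genes that are held silent; it can spread over whole gene loci as broad domains. Many promoters that carry it also carry H3K4me3, the trimethylation found at active and poised promoters, and such promoters are called bivalent. H3K36me3, also used below, is laid down along the bodies of transcribed genes.

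Each age had 1 H3K27me3 library, so no test between ages could be made, no replicate spread was available, and all differences below describe these libraries. The old and young libraries, their ages and any difference in depth, antibody efficiency or cell purity cannot be told apart. Sequencing depth is unknown from the peak lists. Intervals in brackets are 95% Wilson intervals for shares and order-statistic intervals for medians, and they cover counting error only. Peaks are given with their score, read as that of the peak caller MACS, which rises with the evidence for a peak and with depth and starts at 50, a p-value of 1e-05. In young QSCs, 282 of the 11658 H3K27me3 peaks were covered for at least 50% of their length by both H3K4me3 and H3K36me3 peaks of the same cells, so these places were called for all 3 marks. Positions are on the mouse mm9 build. No gene annotation of that build was used, so regions are named by position, and the sorted cell type could not be checked against marker genes.

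The width of H3K27me3 peaks was smaller in old QSCs throughout the distribution, and the difference grew towards the wide end. The young width was 1.26 times the old width at the 5th percentile (663 bp against 524 bp) and 1.47 times at the median (1228 bp against 838 bp). It was 2.71 times the old width at the 95th percentile (4914 bp against 1810 bp) and 3.64 times at the 99th (10000 bp against 2747 bp). The SD of width over peaks was 1996 bp in young QSCs and 477 bp in old QSCs. Peaks wider than 2 kb numbered 2906 in the young list and 604 in the old list, and they held 54.2% of the young covered length but 9.55% of the old. Peaks of at most 1 kb made up 34.8% [33.9 to 35.6] of young peaks and 68.9% [68.2 to 69.6] of old peaks.

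**Figure D1:**
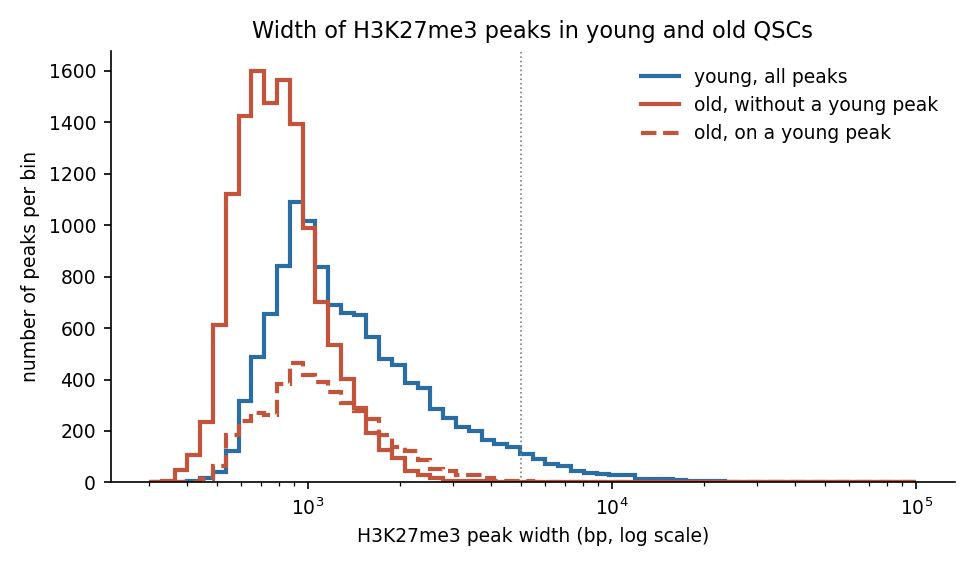
Number of H3K27me3 peaks in bins of equal size on a log scale of width (bp), for all young peaks (blue), old peaks without a young peak (solid red) and old peaks that overlap a young peak (dashed red). The dotted line marks 5 kb. The old-only peaks had a median width of 784 bp, the old peaks on young sites 1055 bp, and the young peaks 1228 bp with a tail to 87904 bp.

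The 21.4 Mb covered by young peaks can be divided by what became of each base. Of these, 5.25 Mb (24.5%) lay in old peaks as well. A further 10.8 Mb (50.4%) lay in young peaks without any old peak, and 5.36 Mb (25.1%) were the uncovered parts of young peaks that were kept. Of the 16.9 Mb covered by old peaks, 31.1% was shared with young peaks, 66.6% lay in old-only peaks and 2.26% (0.382 Mb) extended beyond young peaks that the old peaks overlapped.

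Narrowing was followed at the 2892 sites where exactly 1 young and 1 old peak overlapped each other. The old peak was narrower at 2373 of them, the background share of 82.1% against which the groups of sites below are read. The median ratio of old to young width was 0.657, or -0.61 on the log2 scale, with an SD of 0.83 over sites. At 926 sites the old peak was 50% of the young width or less (32% of sites), whereas it was at least 2 times as wide at 14 sites (0.484%). At 1677 sites, 58.0% [56.2 to 59.8], the old peak lay wholly inside the young peak, while the young peak lay wholly inside the old one at 229. Within these nested sites the median length missing was 430 bp [382 to 476] at the lower coordinate and 464 bp [420 to 519] at the higher. With the ends of each site ordered by loss, the medians were 853 bp [792 to 907] and 193 bp [181 to 214]. The end that lost more held a median of 75.4% [74.4 to 76.6] of the loss at a site. That end is the larger by construction, so these values cannot tell whether the loss was uneven beyond the ordering. Over all 2892 sites, the centres of young and old peaks lay a median of 218 bp apart.

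The share of sites narrower in old QSCs rose with width. Grouped by young width, 42.6% [38.4 to 46.9] of the 526 sites up to 1 kb were narrower, and 97.5% [95.9 to 98.5] of the 601 of 2 to 3 kb. Such grouping favours sites that happened to be wide in the young list. Sites were therefore also grouped by the geometric mean of both widths. Young widths varied more than old ones (quartiles 1113 to 2753 bp against 837 to 1433 bp). A high mean thus still leans towards wide young peaks, and part of the rise can follow from the grouping. Of 660 sites with a mean width up to 1 kb, 69.2% [65.6 to 72.6] were narrower in old QSCs, with a median width ratio of 0.835. Of 597 sites with a mean width over 2 kb, 97.0% [95.3 to 98.1] were narrower, with a median ratio of 0.480. Even the 234 sites chosen for an old peak wider than 2 kb were narrower in old QSCs in 85.5% [80.4 to 89.4] of cases. At the 63 sites where both peaks had a score of at least 1000, every old peak was narrower, with a median of 2871 bp against 4510 bp in the young list. Where the old peak had the higher score of the pair, at 1048 sites, 61.6% [58.7 to 64.5] were narrower and the median ratio was 0.914.

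H3K4me3 peaks at the same places were mostly wider in old QSCs. Of the 2892 sites, 1833 also held an H3K4me3 site called once at each age. At these the median H3K27me3 width went from 1877 bp [1799 to 1953] in the young list to 1229 bp [1202 to 1253] in the old list, whereas the median H3K4me3 width went from 1403 bp [1362 to 1434] to 1493 bp [1453 to 1525]. The H3K4me3 peak was narrower in old QSCs at 33.1% [30.9 to 35.2] of them and the H3K27me3 peak at 80.7% [78.9 to 82.5]. The median width ratio was 0.689 for H3K27me3 and 1.06 for H3K4me3, and the H3K27me3 ratio was the lower of the pair at 83.3% [81.5 to 84.9] of sites. The H3K4me3 values were near those of all 18717 H3K4me3 sites called once at each age. Of these, 33.8% [33.1 to 34.5] were narrower in old QSCs, with a median ratio of 1.05, so the H3K4me3 widths were not particular to these places. Young ASCs provided a second comparison for the same mark. At 1844 young H3K27me3 peaks matched once in old QSCs and once in young ASCs, the median width relative to young QSCs was 0.748 in old QSCs and 1.21 in ASCs, and the old peak was narrower than the ASC peak at 88.1% [86.6 to 89.5]. Over all 5322 sites called once in young QSCs and in ASCs, the median ASC ratio was smaller, at 1.09 [1.08 to 1.11]. The ASC peak was the narrower at 39.5% [38.2 to 40.8] of those.

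The most extreme sites lay at both ends of this range. The smallest ratio was at chr2:166170997-166187448, where a young domain of 16452 bp with a score of 115 met an old peak of 530 bp, a ratio of 0.0322. A second young domain nearby, chr2:166288557-166299379, had a score of 1211 and spanned 10823 bp, and its old peak spanned 413 bp. Another, chr2:166036624-166046963, spanned 10340 bp with an old peak of 642 bp. These 3 domains lay within the same stretch of chromosome 2, held no H3K4me3 peak at either age, and were covered 74.3%, 78.3% and 94.6% by ASC H3K27me3. The old peaks on them had scores of 58.16, 54.45 and 68.5. Over the 5 sites with the smallest ratios, old scores ran from 53.03 to 68.5, near the lowest score in the lists. These ratios thus describe domains that were close to uncalled in old QSCs. The largest ratio was at chr17:12829803-12830545, where a young peak of 743 bp with a score of 62.4 met an old peak of 2205 bp, a ratio of 2.97. All 5 sites with the largest ratios were young peaks of less than 1 kb (627 to 991 bp), and H3K4me3 peaks of old QSCs covered at least 91.9% of each.

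**Figure D2:**
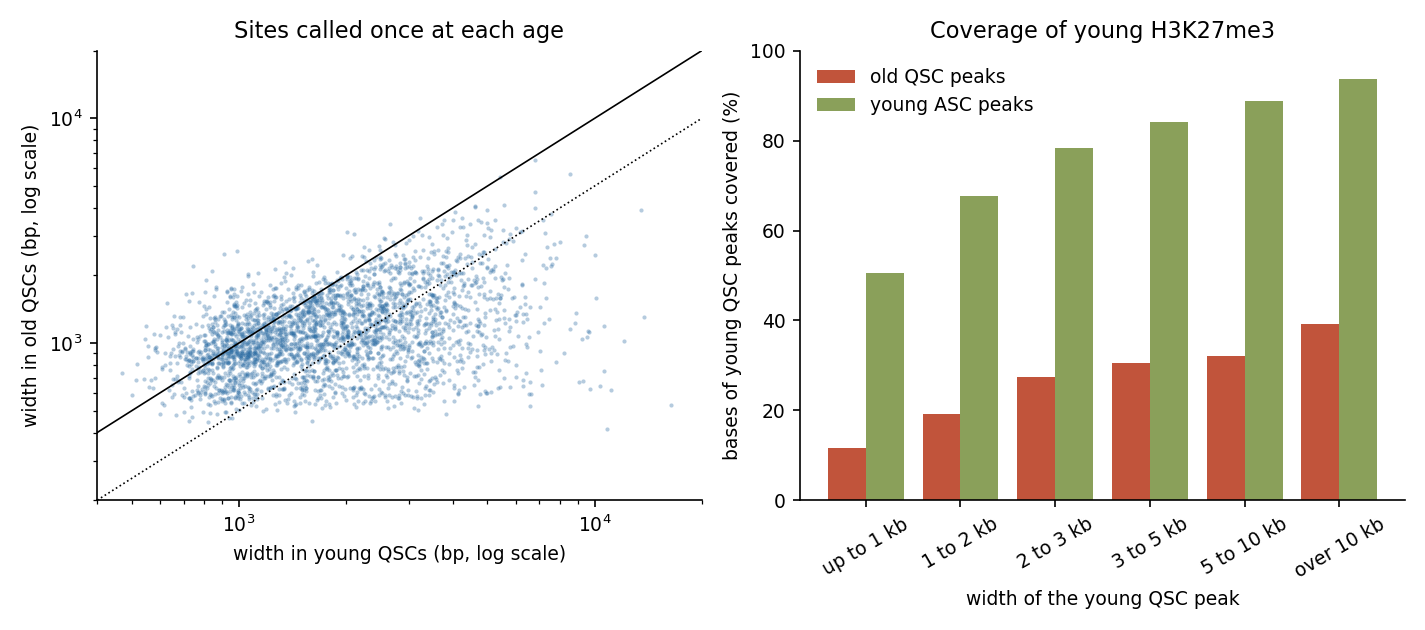
Left, width in young against old QSCs (bp, both axes log) for the 2892 sites with 1 peak in either list; the solid line is equal width and the dotted line an old width of 50% of the young one. Right, share of the bases of young QSC peaks (%) covered by old QSC peaks (red) and by young ASC peaks (green) in 6 classes of young width; old coverage rose from 11.7% to 39.1% and ASC coverage from 50.6% to 93.8%.

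Wide young peaks were more often kept than narrow ones but were covered in part. An old peak was found on 14.4% [13.3 to 15.5] of young peaks up to 1 kb wide, on 51.1% [48.5 to 53.7] of those of 2 to 3 kb and on 94.9% [89.3 to 97.6] of those over 10 kb, against 31.8% of all young peaks. The share of their bases in old peaks rose less, from 11.7% to 27.4% and 39.1% in the same classes. A wide peak offers more bases to be overlapped, and its score was also higher, with a median of 63.0 in peaks up to 1 kb and 2408 in those over 10 kb. By score, 13.7% [12.8 to 14.6] of young peaks below 100 and 93.8% [91.8 to 95.3] of the 737 with a score of at least 1000 were kept, the latter with 43.8% of their bases.

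The 560 young domains wider than 5 kb appeared in old QSCs as short pieces. An old peak lay on 470 of them, 83.9% [80.7 to 86.7], and 312 held 2 or more. In all 1126 old peaks lay on these domains, up to 10 on a domain, with a median width of 1132 bp. Old peaks covered at most 10% of the length of 108 domains, at least 50% of 137 and at least 90% of 4. ASC peaks covered at least 90% of 401 of the same 560 domains. The choice of wide young peaks itself lowers the coverage expected in any other list, and the ASC list, with 38307 peaks over 48.9 Mb, was larger than the old list. The reverse choice gave another picture, as 450 of the 604 old peaks wider than 2 kb, 74.5% [70.9 to 77.8], lay on young peaks and their median coverage by young peaks was 100%. By contrast, 1835 of the 2906 young peaks wider than 2 kb, 63.1% [61.4 to 64.9], lay on old peaks and their median coverage was 44.9% [43.7 to 46.3].

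The 10 widest young peaks held 2 to 10 old peaks each, which covered 8.86% to 86.9% of their length. The widest, chr8:126060929-126148832, spanned 87904 bp with a score of 330, and old peaks covered 8.86% of it. This block was not specific to H3K27me3, since young H3K4me3 peaks covered 99.8% and H3K36me3 peaks 84.0% of it, while old H3K4me3 peaks covered 0%. The fourth widest, chr1:172993522-173016639, was the best kept of the 10 at 86.9%, and H3K36me3 also covered 59.1% of it. The other 8 had at most 3.07% of their length under H3K36me3. Among these, chr2:105501836-105528537 spanned 26702 bp and held 8 old peaks over 31.3% of its length, and chr15:102746138-102771344 spanned 25207 bp and held 10 old peaks over 46.4%. At chr3:88002050-88024717, 4 old peaks covered 27.8% of 22668 bp. At chr11:118902309-118923896, 9 old peaks covered 67.0% of 21588 bp, and at chr13:55922237-55942588, 4 old peaks covered 38.5% of 20352 bp.

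**Figure D3:**
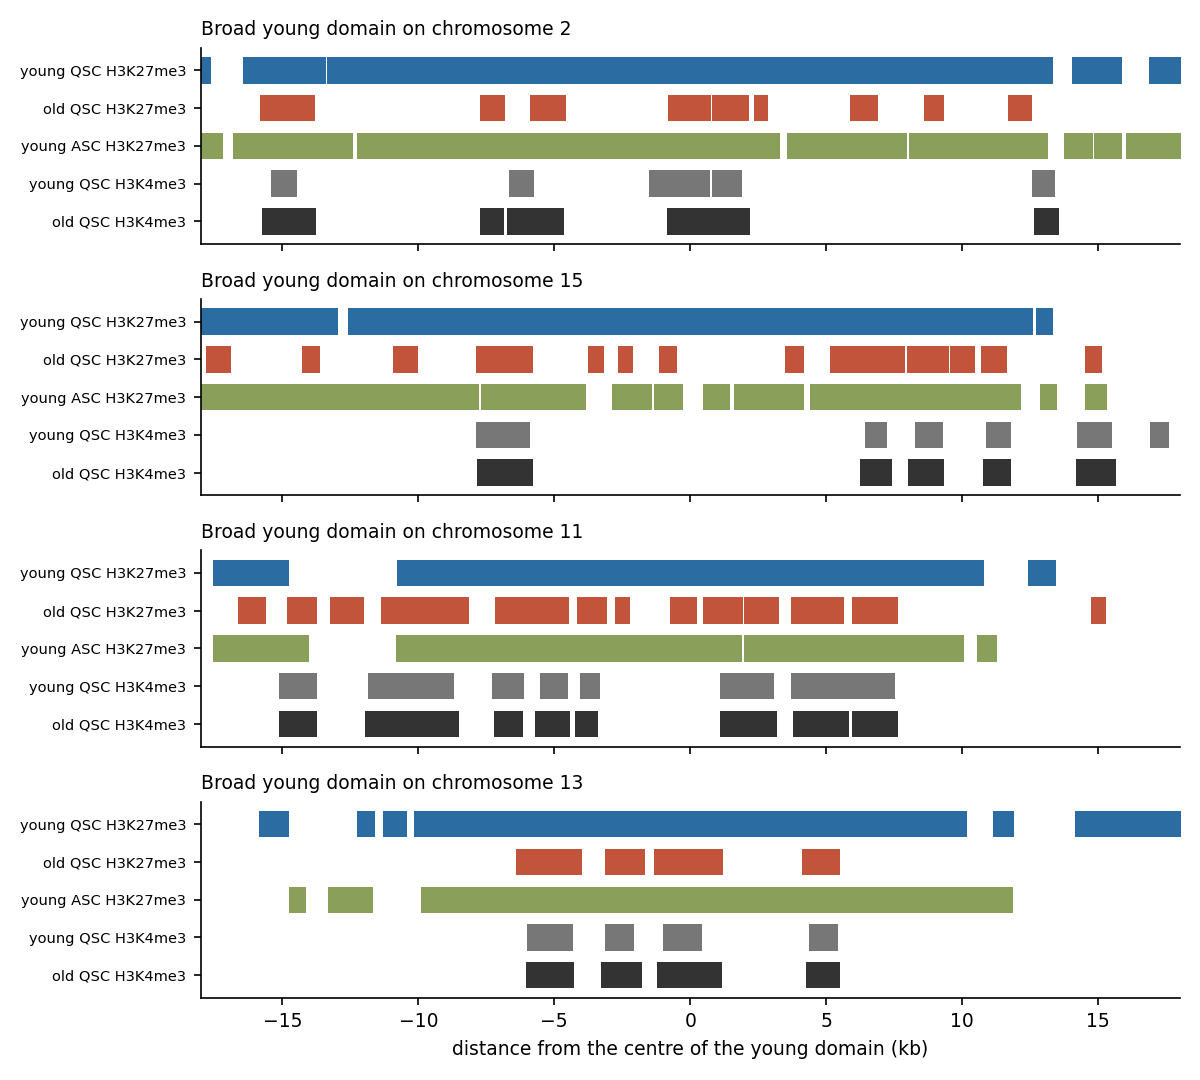
Peaks of 5 libraries over 4 of the 10 widest young H3K27me3 domains, drawn to scale in kb from the centre of each domain; bars are called peaks and their height has no meaning. Young QSC and ASC peaks filled most of each domain, whereas old QSC H3K27me3 was called in 4 to 10 separate peaks, many of them at positions of H3K4me3 peaks.

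Within broad domains, the bases still called in old QSCs were mostly those that carried H3K4me3 in young QSCs. Of the 1.18 Mb of broad domains under young H3K4me3, 82.2% lay in old H3K27me3 peaks, against 18.4% of the 3.45 Mb outside H3K4me3. In ASCs the same figures were 98.0% and 88.1%. In the 407 domains with H3K4me3, the part under H3K4me3 was covered more than the rest in 387 and equally in 7, with a median difference of 70.0 percentage points [66.7 to 73.4]. Outside H3K4me3 in these domains, coverage by old peaks was 29.6% within 1 kb of an H3K4me3 peak, 17.7% at 1 to 3 kb and 14.9% at 3 kb or more. Along the domains, old H3K27me3 covered 43.2% of the middle 20% and 16.6% of the outermost 10% at each end. Young H3K4me3 had a similar shape, at 33.8% and 10.6%, and ASC H3K27me3 a flatter one, at 92.7% and 81.0%.

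**Figure D4:**
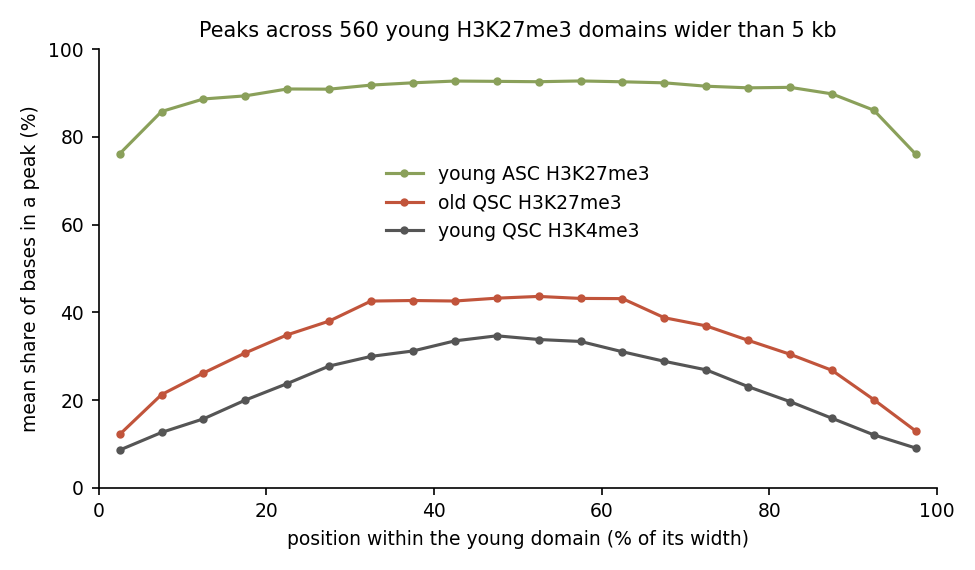
Mean share of bases in a peak (%) along the 560 young H3K27me3 domains wider than 5 kb, in 20 bins of 5% of the domain's width, for ASC H3K27me3 (green), old QSC H3K27me3 (red) and young QSC H3K4me3 (grey). Old H3K27me3 was at 43.2% in the middle and 16.6% at the ends, and the curve was symmetrical.

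Whole domains differed in the same way. Of the 407 broad young domains with a young H3K4me3 peak, 400 held an old H3K27me3 peak, 98.3% [96.5 to 99.2], and their median coverage was 41.5% [39.2 to 43.8]. Of the 153 without H3K4me3, 70 held one, 45.8% [38.1 to 53.7], and their median coverage was 0% [0 to 7.07]. ASC peaks covered a median of 98.6% and 87.2% of these groups. Domains with H3K4me3 were wider, at a median of 7198 bp against 6249 bp, and had a higher median score, 1910 against 916. Among domains with a score of at least 1000 the difference remained, with 350 of 352 against 42 of 66 kept and a median coverage of 44.1% [41.5 to 46.4] against 11.2% [1.63 to 20.4]. It was also present among young peaks of every width. Of all young peaks with H3K4me3, 82.5% [81.1 to 83.7] were kept, and of those without, 12.4% [11.7 to 13.1], against 31.8% of all. For peaks up to 1 kb these shares were 64.2% and 7.22%, and for peaks over 10 kb they were 100% and 71.4%. The part that signal strength, width and H3K4me3 each have in this difference was not tested.

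The 7949 young peaks without an old peak were mostly short and weak. Their median width was 1067 bp [1054 to 1081] and their median score 82.7, against 1971 bp [1904 to 2045] and 289 for kept peaks. Young H3K4me3 lay on 7.12% [6.58 to 7.71] of them and on 71.8% [70.3 to 73.2] of kept peaks. ASC H3K27me3 lay on 64.5% [63.4 to 65.5] of them and on 95.5% [94.8 to 96.1] of kept peaks. Most of the peaks without an old counterpart thus overlapped a peak of the ASC list, which was large (38307 peaks over 48.9 Mb). Among all young peaks, kept or not, ASC H3K27me3 lay on 56.0% of those up to 1 kb wide and 78.0% of those of 1 to 2 kb. The nearest old peak was a median of 11.1 kb away, and 47.9% (3811 peaks) had one within 10 kb.

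Strong young peaks were also missing from the old list. There were 46 with a score of at least 1000, with a median width of 5327 bp, and 42 of these overlapped ASC H3K27me3 while 6 overlapped H3K4me3. The highest-scoring of the 46 was chr16:31488356-31496250, which spanned 7895 bp with a score of 2125. It had no H3K4me3 at either age and lay 17.2 kb from the nearest old peak, and ASC H3K27me3 covered 20.1% of it. At chr8:91102085-91109255 a domain of 7171 bp with a score of 1784 had no old peak within 5.89 kb, and 4 ASC peaks covered 88.1% of it. At chr6:100000643-100009151 a domain of 8509 bp with a score of 1773 lay 29.3 kb from the nearest old peak, and ASC peaks covered 86.3% of it. The other two among the 5 strongest, at chr10:66687351-66690121 and chr10:66700388-66703202, were covered 94.5% and 81.7% by young H3K4me3 and 100% and 89.9% by H3K36me3, and not at all by old H3K4me3 or ASC H3K27me3. Both places were thus called for all 3 marks in young QSCs and for none of the marks compared in the other lists.

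Old-only peaks, 13040 or 73.9% of the old list, were narrow and weak. Their median width was 784 bp against 1055 bp for old peaks on young sites, and 73.2% [72.4 to 73.9] were 0.5 to 1 kb wide against 44.8% [43.3 to 46.2]. Their median score was 79.7 against 180. A score of at least 100 was reached by 33.7% [32.9 to 34.5] of them, and a score of at least 300 by 158. Only 154 were wider than 2 kb, and 7 were wider than 5 kb. ASC H3K27me3 lay on 42.5% [41.7 to 43.4] of old-only peaks and on 95.7% [95.1 to 96.2] of old peaks on young sites. Of the 154 wider than 2 kb, 125 had ASC H3K27me3. Overlap with the ASC list also rose with width among young peaks, from 56.0% up to 1 kb to 90.9% at 2 to 3 kb.

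Other marks were also less frequent on old-only peaks than on old peaks at young sites, except H3K36me3. Old H3K4me3 lay on 31.3% [30.5 to 32.1] against 69.6% [68.3 to 70.9], and young H3K4me3 on 18.4% [17.7 to 19.0] against 65.7% [64.3 to 67.0]. Young H3K36me3 lay on 14.9% [14.3 to 15.5] against 9.55% [8.74 to 10.4]. H3K4me3 peaks that were themselves found in old QSCs and not in young lay on 2276 old-only H3K27me3 peaks, 17.5% [16.8 to 18.1], against 6.53% [5.85 to 7.28] of old peaks on young sites. These 2276 places gained a peak of both marks between the lists. They had a median width of 952 bp [936 to 971], against 755 bp [750 to 760] for the other 10764. They lay farther from young H3K27me3, at a median of 530 kb against 166 kb.

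The strongest old-only peaks carried other marks in large part. The highest-scoring, chr4:118219111-118221663, spanned 2553 bp with a score of 2288 and lay 4.26 kb from a young peak, and H3K4me3 of both ages, H3K36me3 and ASC H3K27me3 each covered at least 92.6% of it. At chr13:23665222-23666994 a peak of 1773 bp with a score of 1215 lay 73.7 kb from young H3K27me3, under H3K4me3 of both ages but with no ASC H3K27me3. At chr5:77285235-77287606 a peak of 2372 bp with a score of 1158 lay 198 kb away and was covered wholly by ASC H3K27me3. The widest old peak of all, chr3:6297298-6307795, was old-only, spanned 10498 bp with a score of 556 and lay 436 kb from young H3K27me3. In young QSCs, H3K36me3 covered 68.2% and H3K4me3 44.6% of this place, while old H3K4me3 covered 0%. Another old-only domain, chr10:27538158-27545723, spanned 7566 bp with a score of 885, lay 1317 kb from young H3K27me3, and was covered 40.7% by old H3K4me3 and not at all by young H3K4me3 or H3K36me3.

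Few old-only peaks lay at the flanks of young peaks. Their median distance to the nearest young peak was 216 kb [205 to 226], with 2.80% [2.53 to 3.10] within 1 kb, 12.3% [11.8 to 12.9] within 10 kb and 37.0% [36.2 to 37.8] within 100 kb. With only peaks of a score of at least 100 in both lists, the median distance was 441 kb [402 to 476]. That limit left 5976 of the 11658 young peaks, and fewer young peaks lengthen such distances by themselves. In the full lists, more than 1000 kb separated 19.8% [19.1 to 20.5] of them from any young peak. For the 29668 ASC peaks without a young QSC peak, measured against the same young list, the median was 33.5 kb [32.4 to 34.7], with 30.5% [29.9 to 31.0] within 10 kb and 4.87% [4.63 to 5.12] beyond 1000 kb. To the nearest young domain wider than 5 kb the median distance was 2727 kb [2635 to 2840] for old-only peaks and 1032 kb [1009 to 1057] for ASC-only peaks. The X chromosome had few young peaks, so its old-only peaks lay a median of 2075 kb from one, while on autosomes the median was 190 kb [181 to 200].

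Old-only peaks near young H3K27me3 and those far from it differed in other marks. ASC H3K27me3 lay on 68.1% [65.2 to 70.8] of the 1066 old-only peaks within 5 kb of a young peak and on 35.6% [34.2 to 37.0] of the 4383 more than 500 kb away. Old H3K4me3 went the other way, from 23.2% [20.7 to 25.8] to 38.3% [36.9 to 39.7], while young H3K4me3 changed less, from 22.6% to 16.9%. Young H3K36me3 lay on 5.72% [4.48 to 7.28] of the nearest group and on 16.1% [15.0 to 17.2] of the farthest. ASC-only peaks were themselves more often near young peaks than old-only peaks were, 30.5% against 12.3% within 10 kb. The part that this density has in the ASC H3K27me3 difference was not tested. Width also differed, from a median of 751 bp near young peaks to 835 bp far from them. At the limit of the overlap rule, 13 sites called once at each age shared 50 bp or less, with a median old width of 704 bp, and 13 old-only peaks lay 50 bp or less from a young peak, with a median width of 712 bp.

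**Figure D5:**
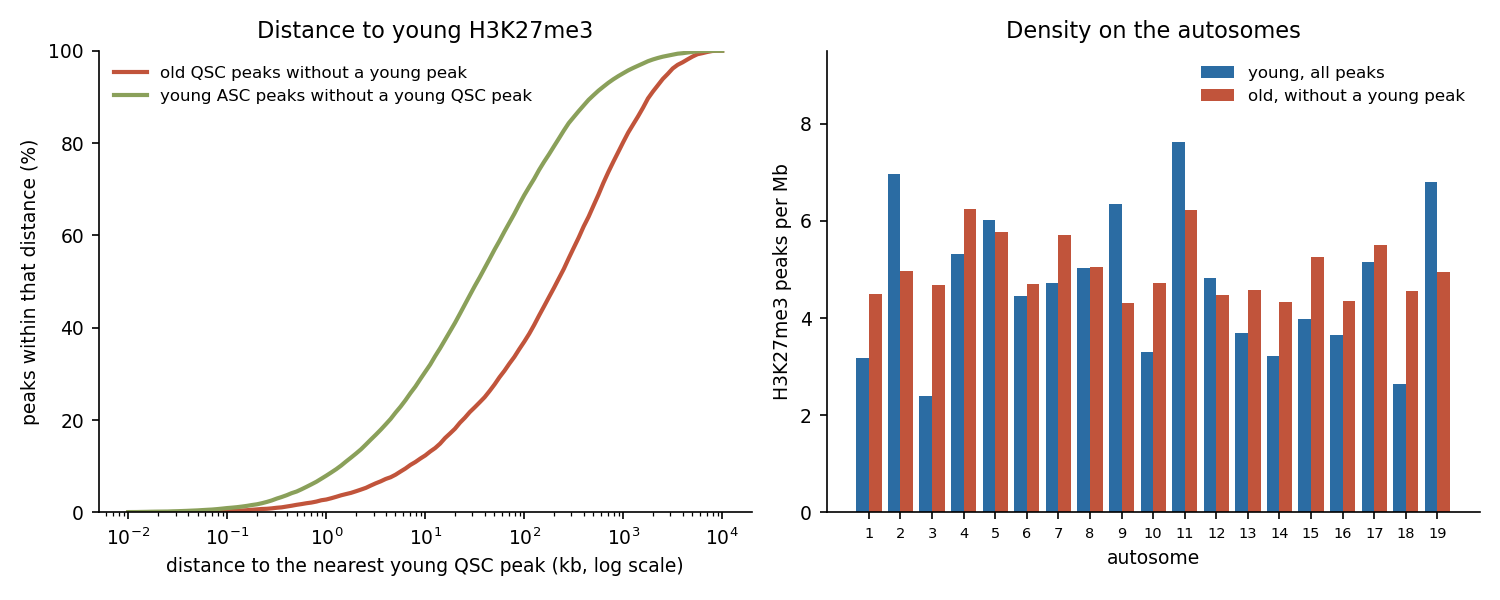
Left, cumulative share (%) of old-only QSC peaks (red) and ASC-only peaks (green) within a given distance (kb, log axis) of the nearest young QSC H3K27me3 peak; the medians were 216 kb and 33.5 kb. Right, H3K27me3 peaks per Mb on each of the 19 autosomes for all young peaks (blue, 2.40 to 7.63) and old-only peaks (red, 4.31 to 6.24).

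Each of the 19 autosomes had a smaller median peak width in old QSCs, over all peaks and thus with the old-only peaks included. The median width per autosome ranged from 1116 to 1318 bp in young QSCs and from 808 to 858 bp in old QSCs, so the ranges did not overlap. The autosomes share both libraries, so they repeat the contrast of the whole lists and are not separate observations of it. The share of sites called once that were narrower in old QSCs ran from 74.0% on chromosome 15 to 89.9% on chromosome 14, beside 82.1% over all sites. Peaks were more numerous in old QSCs on 18 autosomes, from 1.13-fold on chromosomes 2 and 19 to 2.40-fold on chromosome 3. Chromosome 9 was the exception at 0.972-fold, with 787 young and 765 old peaks. The covered length was lower in old QSCs on 17 autosomes, with chromosomes 3 (0.726 against 0.898 Mb) and 18 (0.391 against 0.499 Mb) as the exceptions, and these 2 also had the lowest density of young peaks. Coverage of broad young domains by old peaks varied more, with a median of 6.49% over 16 domains on chromosome 16 and 11.6% over 44 on chromosome 6, against 44.4% over 21 on chromosome 3.

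Old-only peaks were spread more evenly over the autosomes than young peaks. Young peaks ranged from 2.40 per Mb on chromosome 3 to 7.63 per Mb on chromosome 11, 3.18-fold, with a CV over autosomes of 32.5%. Old-only peaks ranged from 4.31 per Mb on chromosome 9 to 6.24 per Mb on chromosome 4, 1.45-fold, with a CV of 12.5%. All old peaks, with those on young sites included, ranged from 5.29 per Mb on chromosome 16 to 9.54 per Mb on chromosome 11. The old-only rule leaves out old peaks at young sites, so part of the evenness can follow from the rule. That part was not tested. Over the 19 autosomes the densities of young and old-only peaks had a Spearman coefficient of 0.51 and a Pearson coefficient of 0.53, given as a description because the autosomes share both libraries. The median distance of old-only peaks to young peaks ranged from 60.5 kb on chromosome 11, the densest in young peaks, to 475 kb on chromosome 14.

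The same contrast, with the same limit from the old-only rule, appeared within autosomes. Of 2414 windows of 1 Mb, 62.6% [60.6 to 64.5] held a young peak, whereas 97.8% [97.1 to 98.3] held an old-only peak. The 10% of windows densest in young peaks held 54.8% of all young peaks, and the 10% densest in old-only peaks held 25.7% of those. Of the 904 windows without young peaks, 875 held an old-only peak, and 30.9% [30.1 to 31.8] of autosomal old-only peaks lay in such windows. The mean number of old-only peaks was 4.24 (SD 2.46) in windows without young peaks and 8.12 (SD 5.88) in the 341 windows with 11 or more, while ASC-only peaks went from 2.97 to 37.6. Across windows, which again share their libraries, the Spearman coefficient with the number of young peaks was 0.26 for old-only peaks and 0.75 for ASC-only peaks. Neighbouring old-only peaks lay a median of 113 kb [110 to 117] apart, and 9.82% [9.32 to 10.3] were 10 kb or less apart. Neighbouring young peaks lay 5.39 kb [4.92 to 5.85] apart, and 55.8% [54.9 to 56.7] were 10 kb or less apart. The young list is complete, whereas leaving out old peaks on young sites lengthens the old-only spacing by itself. The size of that effect was not tested. The window densest in old-only peaks lay at 37 to 38 Mb of chromosome 18, with 39 old-only and 5 young peaks. It was followed by 99 to 100 Mb of chromosome 11, with 38 old-only and 13 young peaks, and 23 to 24 Mb of chromosome 13, with 32 and 13.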

How the data were processed

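The submitters' processing notes name Bowtie and mm9. The peaks carry the names that MACS gives and the deposited lists are titled as called with input control, so the authors' peaks were taken as MACS calls made per library against an input; versions and settings are not given in the sources used here. The deposited lists hold each peak's bounds and its score, read here as the MACS score of -10 times log10 of the peak's p-value because the lowest value is 50. Scores depend on depth, so the same limit on both ages need not be equally strict. Peak lists carry no read counts, so the depth of each library is unknown, and many of the highest scores are tied at 3100. Samples were grouped from the labels. The inputs were used only as far as the authors used them to call peaks.

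Peaks were matched by overlap of at least 1 bp with numpy 2.4.6 and pandas 2.3.3 in Python 3.11.15, and the matching was tested on simulated peaks. Distances run from edge to edge. Chromosome lengths were taken as the largest position in any list. Named regions were the 10 widest young peaks, the 5 widest old peaks, the 5 highest-scoring peaks of each age without a partner, and the 5 sites called once with the smallest and the 5 with the largest width ratio, of which those with distinct features are described. The members, limits and comparisons were chosen with earlier results of these data known. A count of genes by H3K27me3 at their start, the planned gene lists and the check of cell type markers were not run, because the annotation at hand is on another build. For the same reason no sequences are printed. Alternatives were a score of at least 100, equal numbers of top peaks, an overlap of 50% of the shorter peak, merging within 1 or 3 kb, and leaving out sex chromosomes.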

Additional observations from a re-analysis of the deposited data

How the results depend on the processing

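With 1 library per age, neither replicate error nor depth could be assessed, and no library could be left out. No paired analysis was possible because each group has 1 sample and the labels give no replicate numbers. The count of genes by H3K27me3 at their start was not run. The 9 results gave 70 values under the alternatives, of which 31 stayed within their interval or within 1.5-fold and 39 moved past it. A reversal was defined only for peak number, covered length and the share of sites narrower in old QSCs, and none of these reversed. The other results had no direction that could reverse. Equal numbers of top-scoring peaks set the ratio of old to young peak number to 1 by construction. The causes of the shifts below were not tested.

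With a score of at least 100, 39.9% of young peaks were kept, 38.0% of old peaks lay on young peaks, 89.5% of sites were narrower, broad domains were covered 29.2%, 50.9% of old-only peaks were 0.5 to 1 kb wide and their distance was 441 kb. With equal numbers, the shares kept were 27.3% of young and 32.8% of old peaks, 63.1% of old-only peaks were 0.5 to 1 kb wide and their distance was 261 kb. With an overlap of 50% of the shorter peak, 30.1% of young and 24.97% of old peaks were shared. Merging within 1 kb gave 37.7% and 22.8% shared, 78.7% narrower, 24.9% coverage, 71.6% of old-only peaks at 0.5 to 1 kb and a distance of 230.2 kb. Merging within 3 kb gave 2.34-fold as many old as young regions, 43.7% and 21.0% shared, 76.2% narrower, 20.3% coverage, 70.2% at 0.5 to 1 kb and 253 kb. Without the sex chromosomes, 26.9% of old peaks were shared and the distance was 190 kb.

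Further alternatives were chosen after seeing the data. Without old peaks on H3K4me3 found in old QSCs only, 30.2% of young and 28.5% of old peaks were shared, coverage was 30.4%, 77.1% of old-only peaks were 0.5 to 1 kb wide and their distance was 166 kb. Without peaks covered for 50% or more by both H3K4me3 and H3K36me3, the values were 29.97% and 25.3% shared, 84.0% narrower, 74.1% at 0.5 to 1 kb and 228 kb. Domains wider than 10 kb were covered 40.8%.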
